A study of Sporobolus alterniflorus and Setaria viridis with 12 samples.

Results

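A set of 192 Setaria gene IDs reached 1 FPKM in each of the 6 libraries of the salt marsh cordgrass Spartina alterniflora and was listed at 0 in each of the 6 libraries of another grass, Setaria viridis. FPKM counts sequenced fragments of a gene relative to its length and to the size of the library. The 192 genes were 1.26% of the 15218 IDs in the table and 2.23% of the 8625 IDs that were at 1 FPKM or more in all 6 S. alterniflora libraries. The genes were chosen by these FPKM values of both species, so their difference between the species is a description and was not tested. The choice used no contrast of salt with control within S. alterniflora and no place in the order of gene IDs. Its minimum of 1 FPKM in every S. alterniflora library does limit how low a gene can be. It thereby bounds the salt effects and the spread of genes at low levels.

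The series compares mature leaf RNA of the 2 grasses with and without NaCl, and its title asks how sensitive S. viridis is to salt next to S. alterniflora. The groups were S. alterniflora with salt, S. alterniflora control, S. viridis with salt and S. viridis control, with 3 libraries each, which the columns letter A, B and C. Both species were grown indoors and moved to hydroponic culture for the treatment, S. alterniflora from seed collected near Shanghai. The treatment protocol gives 50 mM NaCl for S. alterniflora and 250 mM for S. viridis, whereas the column names carry 250 for S. alterniflora and 50 for S. viridis. A swap of the species prefixes would give the same mismatch, and the species of all values below would then be exchanged. Species are named as the columns name them, and species, dose and the assignment of reads to IDs cannot be told apart in any comparison between them. Separate plants per library are not stated in the labels, so the p-values rest on a spread between libraries that may be technical.

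Setaria viridis is a small annual C4 grass used as a laboratory model, with a sequenced genome. Spartina alterniflora, which the labels list as Sporobolus alterniflorus, is a polyploid perennial C4 grass of tidal marshes that tolerates seawater and secretes salt through glands on its leaves. The 2 belong to different subfamilies of the grasses, and related species can differ in which copies of a gene family they keep and in which copies their leaves transcribe. A level of 0 for an ID in one species can come from a gene that is missing, from a gene that is silent in that tissue, or from reads that were not assigned to that ID, and FPKM values alone cannot tell these apart. The files pair 0 of the IDs with a gene name, so no role is given to any gene here, and the labelled tissue could not be checked against leaf markers. In whole leaves, fewer cells of a type and less RNA per cell cannot be told apart.

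Listing at 0 was lopsided between the species. Of the IDs listed, 60 were at 0 in all 6 S. alterniflora libraries, against 923 IDs at 0 in all 6 S. viridis libraries, although the IDs are those of Setaria. Only 9 IDs were at 0 in all 12 libraries. Whether a filter chose the IDs of the table is not given, so these counts hold for the listed IDs only. The opposite pattern, listed at 0 throughout S. alterniflora with no S. viridis library under 1 FPKM, was found for 22 IDs. Single libraries lay closer together: 9.63% to 11.4% of all IDs were at 0 in a given S. alterniflora library and 10.5% to 13.0% in a given S. viridis library. The 923 IDs were thus at 0 in the same 6 S. viridis libraries, while zeros in S. alterniflora were seldom shared by all 6 of its libraries. Of the 923, 225 reached 1 FPKM in no S. alterniflora library, 506 reached it in 1 to 5 libraries and 192 in all 6. The smallest value above 0 in any S. viridis library was 0.01 FPKM, and the depth behind these values is unknown.

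The 1 FPKM limit of the choice fell within a continuous range of values. The 3 genes just inside it had a lowest S. alterniflora level of 1, 1 and 1.01 FPKM, and the 3 just outside had 0.99 FPKM each and were also at 0 in S. viridis. The S. viridis limit of 0 is instead the lowest value possible. Against the 192 genes at 0, 113 had a highest S. viridis value above 0 and up to 0.1 FPKM. Of these, 3 missed the choice through a highest S. viridis level of only 0.01 FPKM. Reading the 6 salt libraries alone gave 304 genes, and reading the 6 control libraries alone gave 356. Both lists hold the 192 genes by construction, since each applies the same limits to only 6 of the 12 libraries. Their greater length therefore does not by itself show a dependence on treatment.

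Most of the 192 genes were expressed at low to moderate levels in S. alterniflora. Their mean over its 6 libraries had a median of 6.08 FPKM, with quartiles of 3.40 and 14.0 FPKM and a range of 1.41 to 531.7 FPKM. The other 8433 genes at 1 FPKM or more in all 6 libraries had a median of 12.3 FPKM, with quartiles of 5.75 and 28.1 FPKM. Means of 1 to 10 FPKM were found for 133 of the 192 genes (69.3%), against 42.7% of the 8433. Another 53 genes lay between 10 and 100 FPKM, and 6 reached 100 FPKM. Genes at similarly low S. viridis levels were alike in this respect: the median S. alterniflora mean was 5.70 FPKM for the 113 genes whose highest S. viridis value was above 0 and up to 0.1 FPKM, and 5.22 FPKM for the 420 genes between 0.1 and 1 FPKM. It was 18.2 FPKM for the 5351 genes above 10 FPKM in S. viridis. A low S. alterniflora level was thus also found among genes at trace levels in S. viridis.

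**Figure D1:**
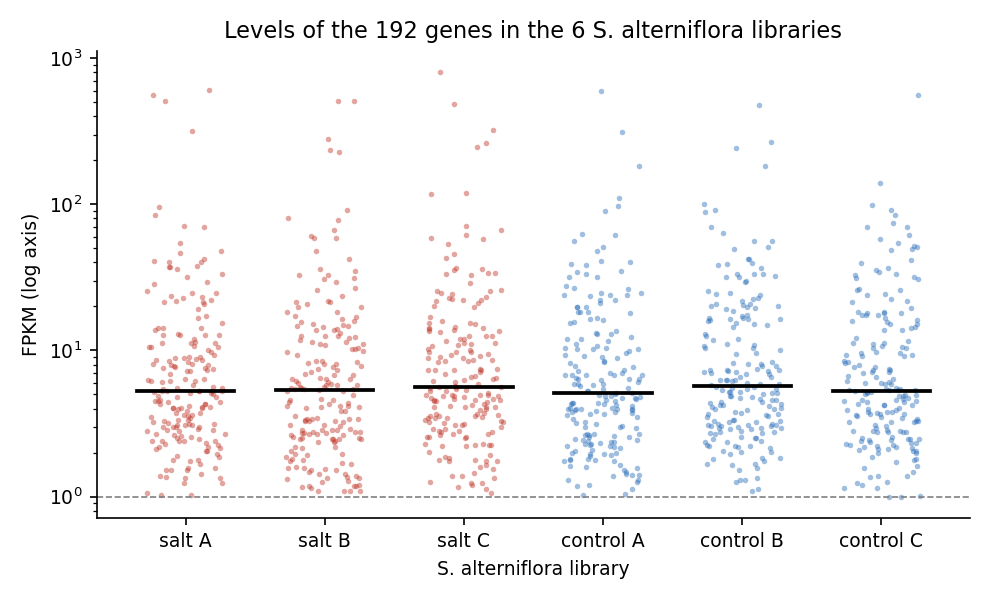
Each point is 1 of the 192 genes in 1 S. alterniflora library, on a log axis of FPKM, with salt libraries in red, control libraries in blue, a black line at each library's median and a dashed line at the 1 FPKM limit of the choice. The medians lie between 5.08 and 5.72 FPKM, and a few genes in each library stand above 100 FPKM.

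The gene with the highest mean, Sevir.3G034100, was also one of the most even. It was at 561.7, 507.3 and 483.2 FPKM in the salt libraries A, B and C, against 598.0, 481.0 and 558.9 FPKM in the control libraries. The groups overlapped, and its highest library was 1.24 times its lowest, the second smallest such ratio among the 192 genes. The salt effect was -0.074 ± 0.227 (log2 fold change ± SE, limma, adjusted p = 0.908). A leaf transcript at 481.0 FPKM or more in every S. alterniflora library was therefore listed at 0 in every S. viridis library.

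The other 5 genes at or above 100 FPKM were uneven. Sevir.2G304600 was at 508.5, 226.5 and 804.2 FPKM with salt, against 96.6, 101.0 and 57.6 FPKM in controls. Every salt library lay above every control, and the effect of 2.44 ± 0.48 narrowly missed the threshold (adjusted p = 0.0585). Without salt library B it was 2.94 and passed (adjusted p = 0.0285), and with only genes at a mean of 5 FPKM or more tested the adjusted p was 0.0495. Without any other single library it did not pass (limma, adjusted p = 0.115 to 0.203), nor did it with no filter (adjusted p = 0.110). Sevir.9G555700 was at 608.3, 281.1 and 323.4 FPKM with salt, against 56.2, 265.4 and 51.2 FPKM in controls. Its groups did not overlap either, but control library B stood close to the salt libraries. The effect was 2.04 ± 0.64 (adjusted p = 0.202), and without control library B it was 2.81 (adjusted p = 0.0464). Without any other single library it did not pass (limma, adjusted p = 0.252 to 0.517). Sevir.9G260400 was at 315.4, 235.5 and 262.5 FPKM with salt, against 313.7, 242.3 and 48.4 FPKM in controls. Only control library C was low, and the effect of 0.79 ± 0.65 (adjusted p = 0.611) became -0.035 without it.

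Sevir.8G027500 had the widest range of all 192 genes. It was at 28.3, 509.2 and 245.4 FPKM with salt, against 3.99, 36.7 and 7.37 FPKM in controls, a 127.6-fold range. Salt library A was below control library B, so the groups overlapped. The effect of 3.73 ± 1.12 was the largest among the 192 genes and did not pass (adjusted p = 0.185). The sixth gene, Sevir.5G105000, falls outside the rule for named genes and was chosen after its values were seen. It was at 46.4, 60.8 and 119.1 FPKM with salt, against 184.2, 183.2 and 139.8 FPKM in controls. It ran the other way from the 4 uneven genes above, whose effects were all above 0, with all salt libraries below all controls and an effect of -1.26 that did not pass (adjusted p = 0.179).

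**Figure D2:**
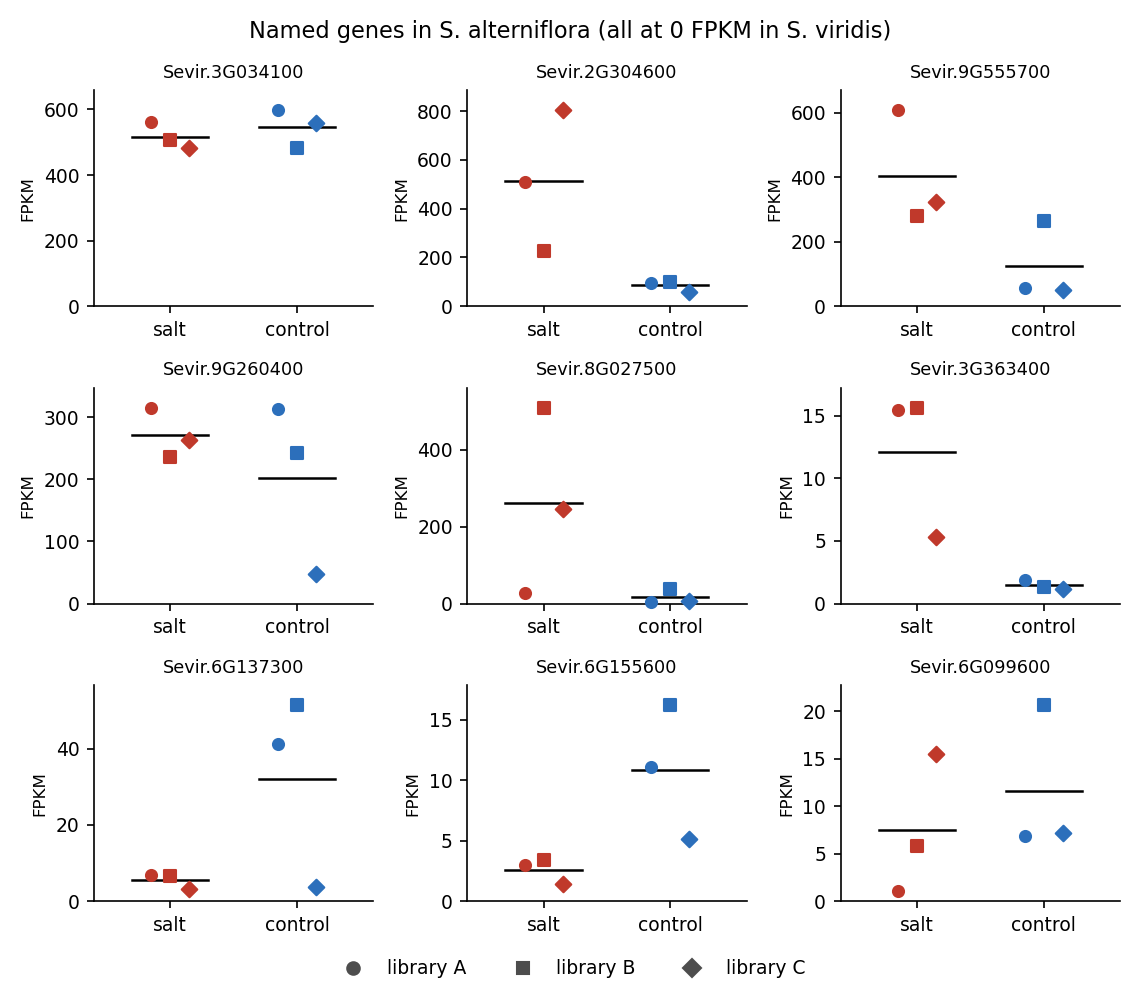
FPKM of the 9 genes named by rule in each S. alterniflora library, with salt libraries left in red and control libraries right in blue, circles, squares and diamonds for libraries A, B and C, and a black line at each group's mean. Sevir.3G034100 is level across libraries, Sevir.3G363400, Sevir.2G304600, Sevir.9G555700 and Sevir.6G155600 separate by treatment, and Sevir.9G260400 and Sevir.6G137300 each have a single control library C far below the other controls.

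For salt in S. alterniflora, 1 of the 192 genes was called, or 0.521%, where 184 of all 11330 tested genes were called, or 1.62% (limma on log2(FPKM + 1), Benjamini-Hochberg adjusted p under 0.05 over all tested genes). Among the 8625 genes held to the same 1 FPKM floor in S. alterniflora, 1.41% were called. With so few calls at either rate, 1 of 192 is not shown to differ from the background. All 192 genes were tested, since the choice itself put each of them above the filter of a mean of 1 FPKM. The called gene rose with salt, where 1.43% of all tested genes did. None of the 192 was called lower by limma, where 0.194% of all tested genes were. At an unadjusted p under 0.05 limma gave 20 of the 192 genes (10.4%), against 14.7% of all tested genes. Of the 192, 11 (5.73%) were higher, against 10.7% of all tested genes, and 9 (4.69%) lower, against 4.05%. All tested genes include genes not held to the 1 FPKM floor in every library.

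The called gene was Sevir.3G363400, of low abundance. It was at 15.4, 15.7 and 5.28 FPKM with salt, against 1.89, 1.30 and 1.14 FPKM in controls. All 3 salt libraries lay above all 3 controls, and the effect was 2.31 ± 0.42 (log2 fold change ± SE, adjusted p = 0.0465 by limma). The call was marginal: the adjusted p was 0.0506 with limma run without a trend, 0.0663 with upper quartile scaling and 0.0744 with median centring. It was 0.0985 with no filter and 0.0557 with only genes at a mean of 5 FPKM or more tested. Leaving out 1 library gave adjusted p-values of 0.0376 to 0.163, and only without salt library C was the gene called. The direction was the same under all these settings.

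No gene passed the test as lower with salt. The most negative effect was that of Sevir.6G137300, at 6.95, 6.53 and 3.17 FPKM with salt, against 41.1, 51.4 and 3.56 FPKM in controls. Its control library C lay among the salt libraries, and the effect was -1.78 ± 0.87 (limma, adjusted p = 0.396). Without control library C the effect was -2.90 (adjusted p = 0.0531), and without any other single library the adjusted p was 0.406 to 0.702. Sevir.6G155600 was at 3.01, 3.39 and 1.39 FPKM with salt, against 11.1, 16.2 and 5.11 FPKM in controls. Here every salt library was below every control, and the effect of -1.64 ± 0.44 did not pass (adjusted p = 0.141).

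Salt effects over the whole set had a median slightly below that of all tested genes. The median log2 fold change was -0.042, with quartiles of -0.49 and 0.31. It was 0.064 over all 11330 tested genes and 0.063 over the 8433 other genes at the same 1 FPKM floor. Effects were above 0 for 92 of the 192 genes and below 0 for 100. Over all tested genes 6224 were above and 5106 below, and over the 8433 other genes 4668 and 3765. With upper quartile scaling 74 of the 192 were above 0 and 118 below, and with median centring 71 were above and 121 below. These scalings moved the median of all tested genes to -0.037 and -0.052, and that of the 192 genes to -0.143 and -0.157, so it was below 0 in all 3 cases. The median of the 192 genes minus that of all tested genes was -0.105 with FPKM as deposited. Median centring shifts all genes of a library alike, so it cannot change this difference. Upper quartile scaling, with 1 factor per library, can hardly do so and gave -0.106. With 1 library left out, the difference ranged from -0.061 without control library C to -0.151 without control library B. At least 2-fold higher with salt on the log2(FPKM + 1) scale, where the added 1 dampens changes of low genes, were 7 genes (3.65%), against 7.48% of the 8433 other genes at the same floor and 9.81% of all tested genes. At least 2-fold lower were also 7 (3.65%), against 2.17% of those 8433 genes and 3.50% of all tested genes. The 3 salt libraries lay above all 3 controls for 20 genes (10.4%), where 14.7% of all tested genes did so, and below them for 15 (7.81%), where 7.01% did. All tested genes include genes not held to the 1 FPKM floor, which limits this last comparison.

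**Figure D3:**
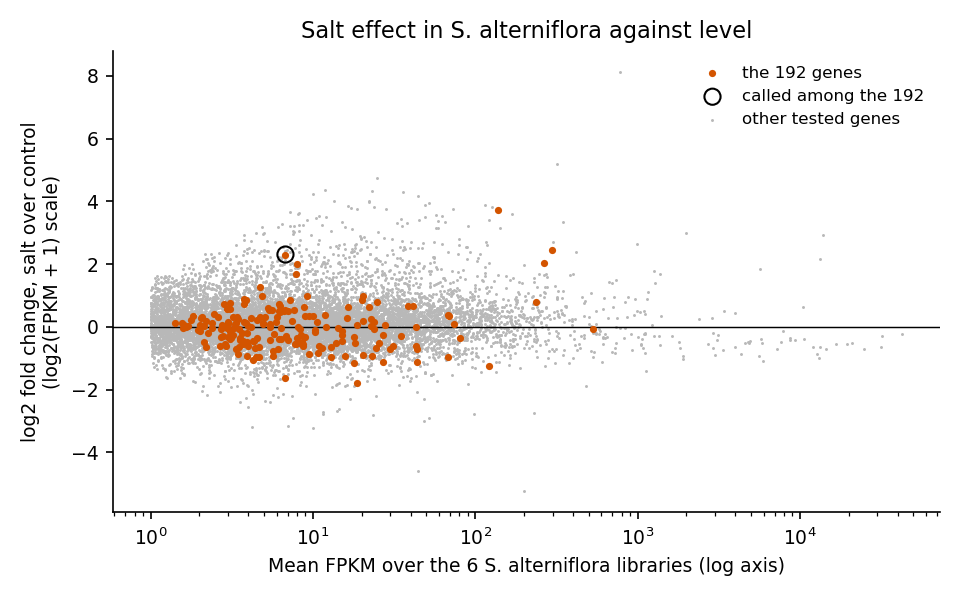
The log2 fold change of salt over control in S. alterniflora against mean FPKM on a log axis, for the 192 genes in orange and the other tested genes in grey, with a ring around the 1 called gene. The orange points spread to both sides of 0, with 3 abundant genes above an effect of 2.

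The 192 genes together held 0.542%, 0.518% and 0.606% of total FPKM in the salt libraries A, B and C, against 0.411%, 0.523% and 0.333% in the control libraries. The groups overlapped through control library B. Without the 6 genes at 100 FPKM or more, the remaining genes held 0.272% ± 0.017 with salt and 0.272% ± 0.048 in controls (SD, n = 3 each). Those 6 genes were taken by a mean that includes the salt libraries, and Sevir.2G304600 and Sevir.8G027500 averaged 85.1 and 16.0 FPKM in controls, so the split does not show independently where the summed difference lies. The share also moves with the total: total FPKM ranged from 710230 to 741399 in salt libraries and from 666702 to 915944 in controls, highest in control library C, where the share was lowest.

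The spread between libraries of a group had a higher median among the 192 genes than among other genes. The median residual SD within groups was 0.442 (log2(FPKM + 1)), against 0.390 for the 8433 other genes at the same floor. It was 0.414 against 0.374 at means of 1 to 10 FPKM, 0.492 against 0.400 at 10 to 100 FPKM and 0.874 against 0.417 at 100 FPKM and above, where only 6 of the 192 genes lie. The order was the same in all 3 classes of level. The highest library was at least 10 times the lowest for 18 of the 192 genes (9.38%), against 4.20% of the others, and less than 2 times the lowest for 41 (21.4%), against 31.0%. These are descriptions over genes, which are not independent replicates. The second widest range after Sevir.8G027500 was that of Sevir.6G099600, at 1.02, 5.76 and 15.5 FPKM with salt, against 6.82, 20.7 and 7.16 FPKM in controls. Its 20.3-fold range did not follow the treatment (effect -0.87 ± 0.76, limma, adjusted p = 0.638).

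Rank correlations between libraries were lower over the 192 genes as well. Spearman's rho across the 192 genes was 0.689 to 0.800 between salt libraries and 0.734 to 0.856 between controls. Across the 8433 other genes it was 0.825 to 0.936 between salt libraries and 0.877 to 0.946 between controls. The narrower range of levels among the 192 genes also enters these values. The weakest pair was salt library B with control library C in both sets, at 0.615 for the 192 genes and 0.750 for the others. Control library C was the highest library for 47 of the 192 genes (24.5%), against 14.0% of the others. It was the lowest for 36 (18.8%), against 30.8% of the others. Salt library B was the lowest for 51 genes (26.6%) and the highest for 35 (18.2%), against 29.7% and 26.8% of the others. These shares were not tested.

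The 192 genes were spread almost evenly over the chromosomes, while the table was not. In Setaria IDs of this form the digit before the letter G names the chromosome, and each chromosome held 16 to 24 of the genes. The table held 655 IDs of chromosome 8 and 2836 of chromosome 9, and each of these chromosomes held 22 of the 192 genes. They were thus 3.36% of the table's chromosome 8 IDs, against 0.776% of its chromosome 9 IDs and 1.01% to 1.75% on the other chromosomes. Chromosome 8 also stood apart in the table itself. Adjacent ID numbers differ by 100, and per 100 such steps 24.9 IDs were listed on chromosome 8, against 38.6 to 49.2 on the others. The 923 IDs at 0 in all 6 S. viridis libraries, which include the 192, were also highest on chromosome 8, at 14.05% of its IDs, and made up 4.41% to 7.36% of those on the other chromosomes.

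The share on chromosome 8 was highest among exact zeros in S. viridis. Among genes at 1 FPKM or more in all S. alterniflora libraries, chromosome 8 held 22 of the 192 genes at 0 in S. viridis (11.5%), 6 of the 113 above 0 and up to 0.1 FPKM (5.31%), and 20 of the 420 between 0.1 and 1 FPKM (4.76%). It held 3.92% of those between 1 and 10 FPKM and 3.63% of those above 10 FPKM. With any 1 library left out of the choice, chromosome 8 held 11.1% to 13.0% of the genes found, and with a minimum of 0.5 or 2 FPKM it held 11.5% and 11.9%. With an S. viridis maximum of 0.1 FPKM in place of 0 it held 9.18%. These shares were not tested. Of the 22 genes of the opposite pattern, 2 were on chromosome 8 and 6 on chromosome 9.

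**Figure D4:**
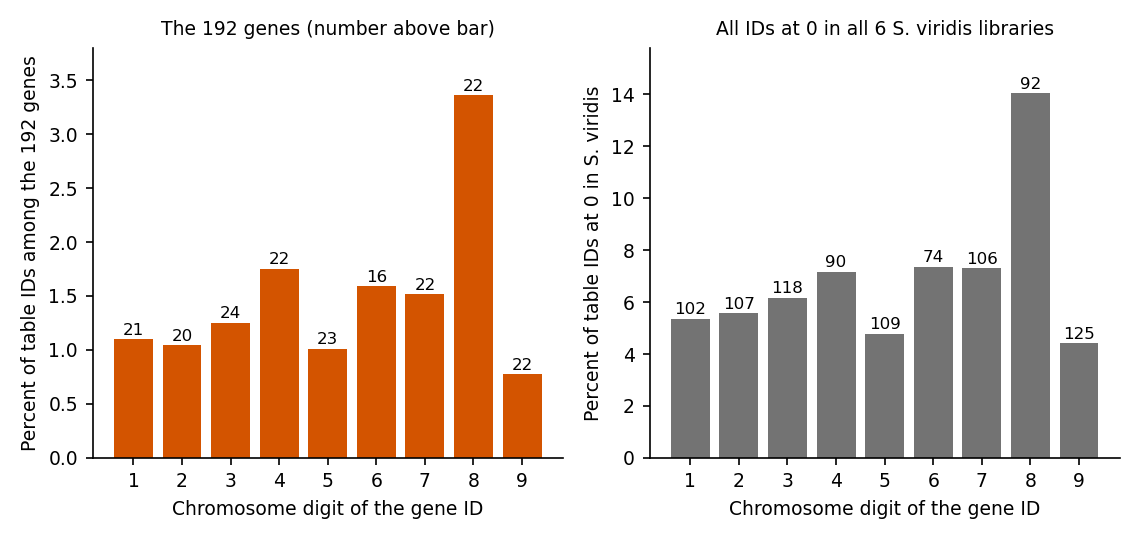
Left, the 192 genes as a percentage of the table's IDs for each chromosome digit, with their number above each bar. Right, the same for all 923 IDs at 0 in all 6 S. viridis libraries. Chromosome 8 has the highest bar in both panels, at 3.36% and 14.05%, and chromosome 9 the lowest, at 0.776% and 4.41%.

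Along the chromosomes, as far as ID numbers give the order, 68 of the 192 genes lay in the first of 3 equal stretches of the numbers, 76 in the middle stretch and 48 in the last. The shares were 35.4%, 39.6% and 25.0%, against 32.3%, 31.6% and 36.1% for the 8433 other genes. The middle stretch thus held the largest share of the 192 genes and the last stretch the largest share of the others. A single pair among the 192 genes, Sevir.8G243000 and Sevir.8G243100, chosen after the values were seen, had adjacent numbers. Sevir.8G243000 was at 40.6, 4.93 and 33.3 FPKM with salt, against 24.7, 42.1 and 32.9 FPKM in controls. Sevir.8G243100 was at 5.09, 8.43 and 6.72 FPKM with salt, against 3.70, 7.41 and 4.93 FPKM in controls. The pair did not move together: salt library B was the lowest for the first and the highest for the second.

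A larger share of IDs was at 0 in S. viridis next to the 192 genes than next to other genes. Leaving out neighbours that are themselves among the 192, whose zeros the choice fixed, the table held 136 IDs with a number directly before or after that of 1 of the 192 genes. Of these, 20 (14.7%) were at 0 in all 6 S. viridis libraries. For the 8433 other genes at the same S. alterniflora floor it was 259 of 8580 (3.02%), again without the 192 genes. On chromosome 8 it was 4 of 10 (40.0%) against 13 of 253 (5.14%). Away from chromosome 8 it was 16 of 126 (12.7%) against 246 of 8327 (2.95%), so the difference was also seen without that chromosome. The neighbours' own levels had a median of 3.71 FPKM in S. alterniflora and 3.08 FPKM in S. viridis. For neighbours of the other genes the medians were 4.64 FPKM in S. alterniflora and 7.11 FPKM in S. viridis. IDs in a run share their surroundings, an ID between 2 genes is counted from both sides, and no test was made. Whether zeros in S. viridis follow from its genome, from silent genes or from the assignment of reads was not tested.

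**Figure D5:**
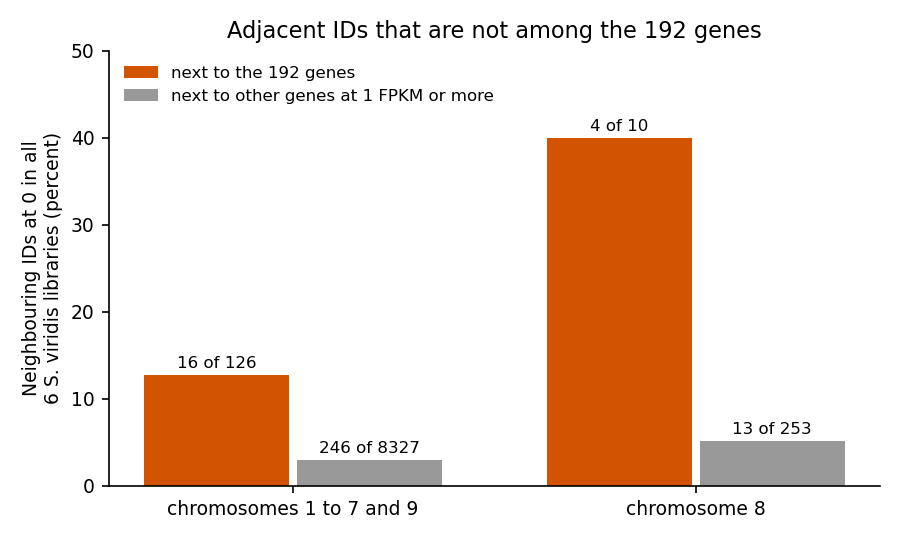
Percentage of IDs with directly adjacent numbers, none of them among the 192, that were at 0 in all 6 S. viridis libraries, next to the 192 genes in orange and next to the other genes at 1 FPKM or more in all 6 S. alterniflora libraries in grey, with counts above the bars. The orange bar is higher both away from chromosome 8, at 12.7% against 2.95%, and on it, at 40.0% against 5.14%.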

How the data were processed

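Mature leaf RNA of 12 libraries was sequenced in paired ends on an Illumina platform, per the labels' protocols, and the authors deposited FPKM values for 15218 gene IDs. Per the submitters' processing notes, RSEM and edgeR were used, in roles not stated. Aligner, reference, genome build, filters and the step that gave S. alterniflora reads a Setaria ID are all not given in the sources used here, so genes that share reads with near-identical copies are uncertain. Read totals were not used here, and the depth is unknown. Columns name a group and a letter but no replicate number, so they were assigned to groups.

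The salt test used limma 3.58.1 (R 4.3.3) on log2(FPKM + 1), two-sided with eBayes and a variance trend, for the 11330 genes whose mean over the 6 S. alterniflora libraries was 1 FPKM or more. P-values were adjusted by Benjamini-Hochberg over all of them, with a threshold of 0.05. The fit was also run on simulated data with independent noise for each gene. That check holds no shifts shared within a library, so it does not show how many real changes the test finds. Counting and plotting used Python 3.11.15 with pandas 2.3.3 and matplotlib 3.10.9. The genes, tests and alternatives were chosen with earlier results of these data known. Named genes are the 5 with the highest mean, for salt 2 with higher and 2 with lower levels (called ones first, then the largest effects), and the 2 widest ranges. Keyword classes of gene function could not be used, since no ID is paired with a name.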

Additional observations from a re-analysis of the deposited data

How the results depend on the processing

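The count of 1 gene called for salt among the 192, and of 1 called higher, was 0 with no filter, with upper quartile scaling, with median centring and without a trend. With only genes at a mean of 5 FPKM or more tested it was 1, but the gene was Sevir.2G304600. Leaving out each library in turn gave 0 to 1 calls in all and 0 to 1 higher, and the called gene was then Sevir.3G363400, Sevir.2G304600 or Sevir.9G555700. Over all 11330 genes the same fits called 0 without control library A, 58 without B and 1 without C, and 116, 141 and 33 without salt libraries A, B and C, so a count of 0 among the 192 without control library A or C says nothing of these genes. A fit over all 12 libraries called 16, with 10 higher and 6 lower, and 595 of all 11330 genes (5.25%). By construction its residual spread includes the 6 S. viridis libraries, which are at 0 without spread for these genes, so its p-values are too small. The letter as a replicate block called 1 gene, Sevir.8G027500 (adjusted p = 0.0338), and not Sevir.3G363400 (adjusted p = 0.0609). The letters are no stated pairing, and deviations of libraries with the same letter correlated at 0.031, -0.023 and 0.018. The effect of Sevir.9G260400 was -0.035 without control library C and up to 1.30 without other single libraries. The median effect of the 192 genes was 0.027 without salt library B. The number of genes was 118 with an S. alterniflora minimum of 2 FPKM, 305 with an S. viridis maximum of 0.1 FPKM, 304 from salt libraries alone and 356 from control libraries alone, and 195 to 216 with 1 library left out. Without the 10 most abundant genes of each library, the genes held 0.789% of total FPKM with salt and 0.645% in controls. Single libraries were then at 0.710% to 0.870% with salt and 0.597% to 0.707% in controls. The overlap of the groups seen with the full total was thus narrowly absent, which was not tested. The unknown depth limits what a listed 0 can show.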
